A study of Mus musculus with 12 samples.

Results

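Slc2a1, Hk1, Hk2, Gpi1, Pfkl, Pfkp, Pkm, Ldha, Slc16a1 and Slc16a3 take a cell from glucose uptake through glycolysis to the export of lactate, and they make up 10 of the 21671 genes measured. They were chosen by name for these roles, and all 10 were found by their symbols in the deposited table. Slc16a3 stood near 0 in every library, at 4 to 20 reads, and is given as not measured.

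The cells were FL5.12, a BALB/c mouse lymphoid progenitor line that needs interleukin 3 to grow, made to express MycER, a fusion of Myc with a hormone-binding domain that 4-hydroxytamoxifen (OHT) switches on. RNA was sequenced from 4 groups with 3 biological replicates each. The groups were untreated cells, cells kept in 100 nM OHT for 72 h (OHT), cells given IACS-010759, an inhibitor of complex I of the respiratory chain, at 135 nM over 24 h (IACS), and cells that had 48 h of OHT first and then 24 h of the inhibitor while OHT stayed in the medium (OHT_IACS). MycER came from a retroviral vector and the cells were an antibiotic-selected population, and every group, the untreated one included, carried it. No library came from cells without MycER, so that effects of OHT itself and of active MycER cannot be told apart. The methods describe passage in medium with reduced glucose before work with the inhibitor, whereas the labels name normal growth medium, so the glucose around these cells is not known for certain.

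Glucose enters lymphoid cells through facilitative transporters and is phosphorylated by hexokinases, which keeps it inside the cell. The later enzymes of glycolysis turn it to pyruvate and yield ATP, lactate dehydrogenase reduces pyruvate to lactate and so restores NAD+, and monocarboxylate transporters carry lactate across the membrane together with a proton. Myc is known to raise genes of this route in lymphocytes and tumor cells, and cells whose complex I is blocked are known to rely on glycolysis for ATP.

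The authors deposited RPKM, the reads on a gene divided by its length in kilobases and by the library total. The library totals worked out from these values were 13375674, 14550158 and 14281395 reads in untreated cells and 10376530, 13956222 and 10770476 with OHT. They were 13076509, 13729131 and 11133789 with IACS, and 11913079, 11804978 and 11792608 with OHT_IACS. OHT replicates 1 and 3 thus held 0.776 and 0.805 of the reads of untreated replicate 1, while OHT replicate 2 held 1.04. Replicates of a group differed beyond sampling noise in 11 of 12 pairs, with a chi-square per gene of 1.02 to 4.62. The lowest value was that of IACS replicates 1 and 2, and among genes under 0.3 reads per base all 12 pairs differed, at 1.05 to 2.66. Among genes over 1 read per base 0 of 12 pairs differed by more than sampling noise, at 0.172 to 1.16. The test looked only for an excess. Sampling noise alone gives about 1, so that values well under 1 mean reads more alike than sampling gives. The labels give IACS replicates 1 and 2 as separate, and n = 3 for IACS counts them so, but whether they are separate cultures is not known from the files.

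Markers of the line and of other blood cells were read first. Of 12 markers of B-lineage progenitors 4 stood at 1 RPKM or more in every library. They were led by Csf2rb, a receptor chain of the interleukin 3 family, at 39.8 to 48.5 RPKM. The others were Ptprc at 15 to 19.3 RPKM, Il3ra at up to 9.78 and Cd79b at 1.05 to 3.64. Pax5, Rag1 and Il7r, which mark committed B-cell precursors, were at 0 in all 12 libraries. Ebf1, Vpreb1, Igll1 and Rag2 reached at most 0.376 RPKM in any library. The summed RPKM of the 12 averaged 70.4 in untreated cells, 70.9 with OHT, 71.9 with IACS and 75.9 with OHT_IACS. Most of this sum was Csf2rb, and a B-lineage identity of the cells was not tested by it. The 5 T-lineage markers summed to 0.945 to 2.38 RPKM, most of it Cd3g, with Cd3e at 0. Their sums averaged 1.97 RPKM in untreated cells, 1.02 with OHT, 2.1 with IACS and 1.61 with OHT_IACS. The 4 stromal markers summed to 0.0821 to 0.343 RPKM, most of it Col1a1, with Col3a1 and Pdgfra at 0. The 6 myeloid markers, led by Mpo at 8.65 to 13.7 RPKM, averaged 15.7, 11.2, 14.5 and 10.2 RPKM in the same order of groups. For 3 erythroid markers found of 4, led by Klf1 at 4.92 to 13.7 RPKM, the sums were 14.1, 11, 8.44 and 7.22 RPKM. The T-lineage, myeloid and erythroid sums differed between the groups, and their part in the results was not tested. In bulk RNA, fewer cells of a kind and less RNA per cell cannot be told apart.

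Genes known to respond to the treatments moved. St6galnac4, a sialyltransferase known to follow Myc, rose with OHT by a log2 fold change of 1.38 ± 0.0607 (SE, limma, Benjamini-Hochberg adjusted p = 4.77e-09). It was also called higher with IACS, by 0.21 (adjusted p = 0.0339), from groups that overlapped, a call kept in 16 of 25 other settings and lost without untreated replicate 1 (0.18) or 2 (0.19) or IACS replicate 1 (0.16) or 2 (0.19). Rrp9, a factor of ribosomal RNA processing, rose by 0.64 ± 0.0693 (SE, adjusted p = 1.48e-05). Myc itself fell by 0.81 with OHT (adjusted p = 1.74e-07) and rose by 0.34 with IACS (adjusted p = 0.000991), and whether MycER reads were counted as Myc was not tested. The stress genes Trib3 and Ddit3 rose with IACS by 1.96 and 1.17 (adjusted p = 7.79e-08 and 1.23e-07). They were also higher with OHT alone, by 0.68 (adjusted p = 0.000243) and 0.22 (adjusted p = 0.0189), and so did not move with IACS only. The latter call was lost without untreated replicate 3 (0.20), with only the groups compared (0.22) and with voom (0.23), and without OHT replicate 2 the value was 0.13 and called.

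In untreated cells the ranges of genes next to each other in level did not overlap in the 3 libraries. Ldha stood highest at 66.4 ± 2.32 RPKM (SD, n = 3), followed by Pkm at 60.6 ± 2.74. Slc16a1 at 42.2 ± 1.23 RPKM and Gpi1 at 39.1 ± 1.28 came next, ahead of Pfkl at 28.8 ± 0.987. The gene at the entry, Slc2a1, was at 23.8 ± 1.26 RPKM. Below it lay Hk2 at 14.5 ± 0.754 RPKM, Hk1 at 12 ± 0.659 and Pfkp at 10 ± 0.478. Whether duplicate reads were removed before counting is not known from the files, so that the levels of the most abundant genes may not be in proportion to those of the others.

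**Figure D1:**
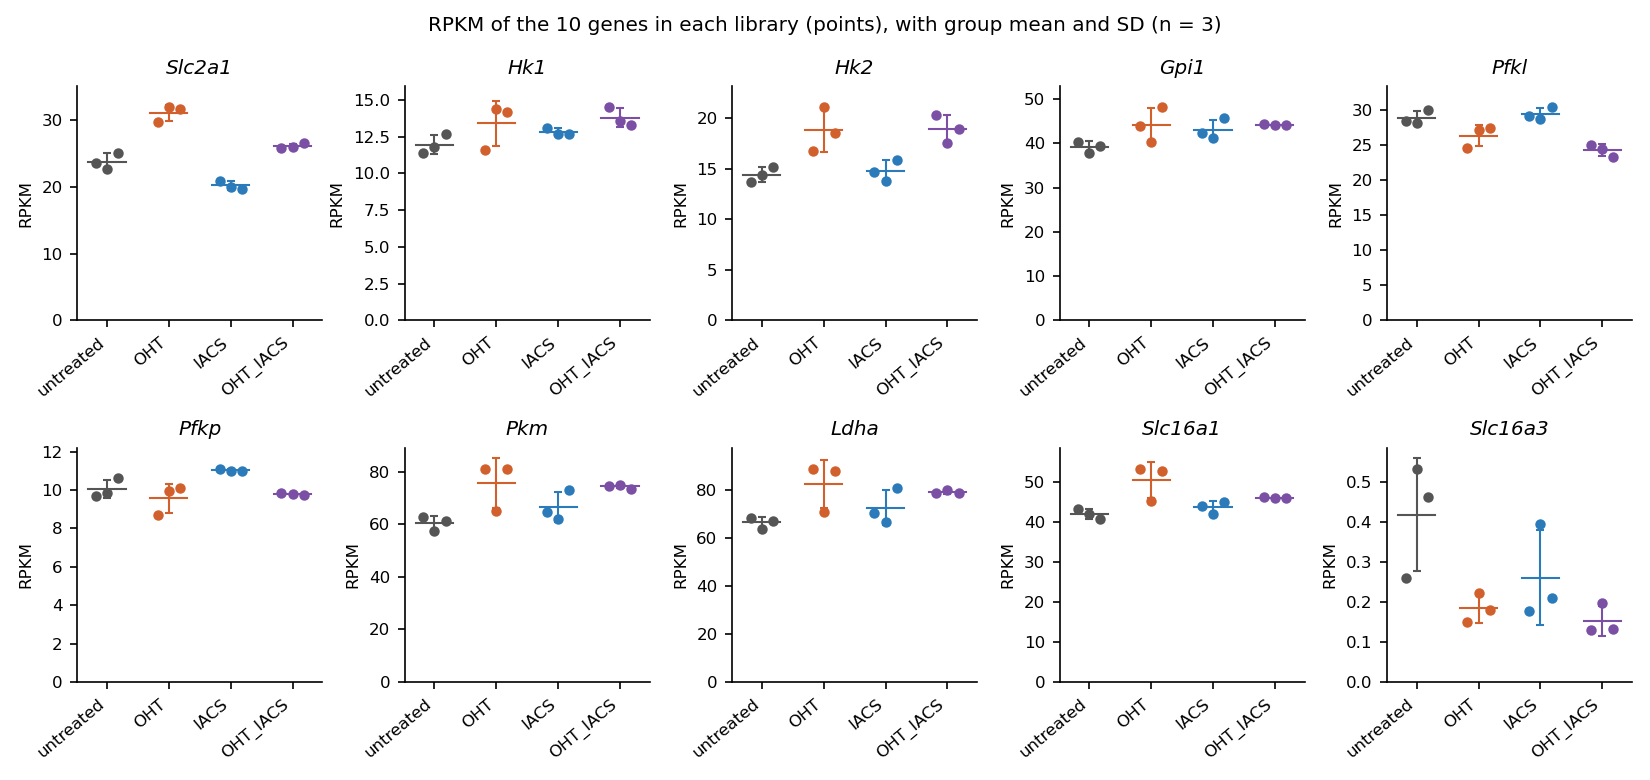
RPKM of each of the 10 genes in the 12 libraries. Points are libraries, horizontal lines group means and error bars the SD of 3 libraries, and each vertical axis starts at 0. Slc2a1 lies between 29.7 and 31.9 RPKM with OHT, above every untreated library, and between 19.7 and 20.9 with IACS, below every untreated library.

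Each treatment was compared in the absence and in the presence of the other with limma on log2 RPKM, in a fit of all 12 libraries and 9745 genes, and a gene is called where its adjusted p lies under 0.05. The 4 comparisons share their control groups, so that they are not independent of each other. OHT against untreated asks what OHT does in cells that carry MycER. Of the 9 members tested, 5 were called higher with OHT (Slc2a1, Hk2, Pkm, Ldha and Slc16a1), where 18.2% of all genes tested were called higher. Another 1, Pfkl, was called lower, where 18.2% of all genes were. The median log2 fold change of the 9 was 0.24, against 0.01 over all genes. The count of 6 rested on single libraries. It was 2 without untreated replicate 3 or OHT replicate 3, 3 without untreated replicate 2 or OHT replicate 1, and 7 without OHT replicate 2. It was also 2 when only the groups compared were fitted, or when the log2 total of each library entered the fit as a covariate.

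OHT_IACS against IACS asks the same of cells whose complex I is blocked. There 2 members were called higher (Slc2a1 and Hk2), beside 12.3% of all genes, and 2 lower (Pfkl and Pfkp), beside 14.2%. The median of the 9 was 0.11, against -0.003 over all genes.

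IACS against untreated asks what the block of complex I does in cells without OHT. None of the 9 members was called higher with limma, where 8.15% of all genes were, and 1, Slc2a1, was called lower, where 7.74% were. At an unadjusted p under 0.05 there were 2 members, Slc2a1 lower and Pfkp higher. OHT_IACS against OHT asks this of cells on OHT, and again 0 members were called higher, beside 11.9% of all genes, and Slc2a1 was called lower, beside 11.8%, with Slc2a1 and Pfkl lower at an unadjusted p under 0.05. Voom on the recovered reads called Slc2a1 alone of the members in both comparisons. The members' medians were 0.07 and -0.01, against 0.004 and -0.01 over all genes. Within groups the reads of Ldha, Pkm, Gpi1 and Slc16a1 followed the library total with slopes of only 0.18, 0.21, 0.53 and 0.53, as given below. Whether a change in these genes would show in full was not tested. The counts of members are therefore not wholly comparable with the shares of all genes. In OHT_IACS against OHT, Slc16a1 was also called lower without OHT replicate 2 (-0.21), with weights per library (-0.16) and with the library total as a covariate (-0.11), and Pfkl with weights per library (-0.14).

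The interaction asks whether the response to IACS differs with OHT. It was called for 0 of the 9 members with limma, where 0.144% of all genes were called, with 0 members at an unadjusted p under 0.05. Voom on the recovered reads called 0 members as well, and 30 genes higher and 1 lower of 9745. The members' median interaction was -0.10, against -0.01 over all genes.

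**Figure D2:**
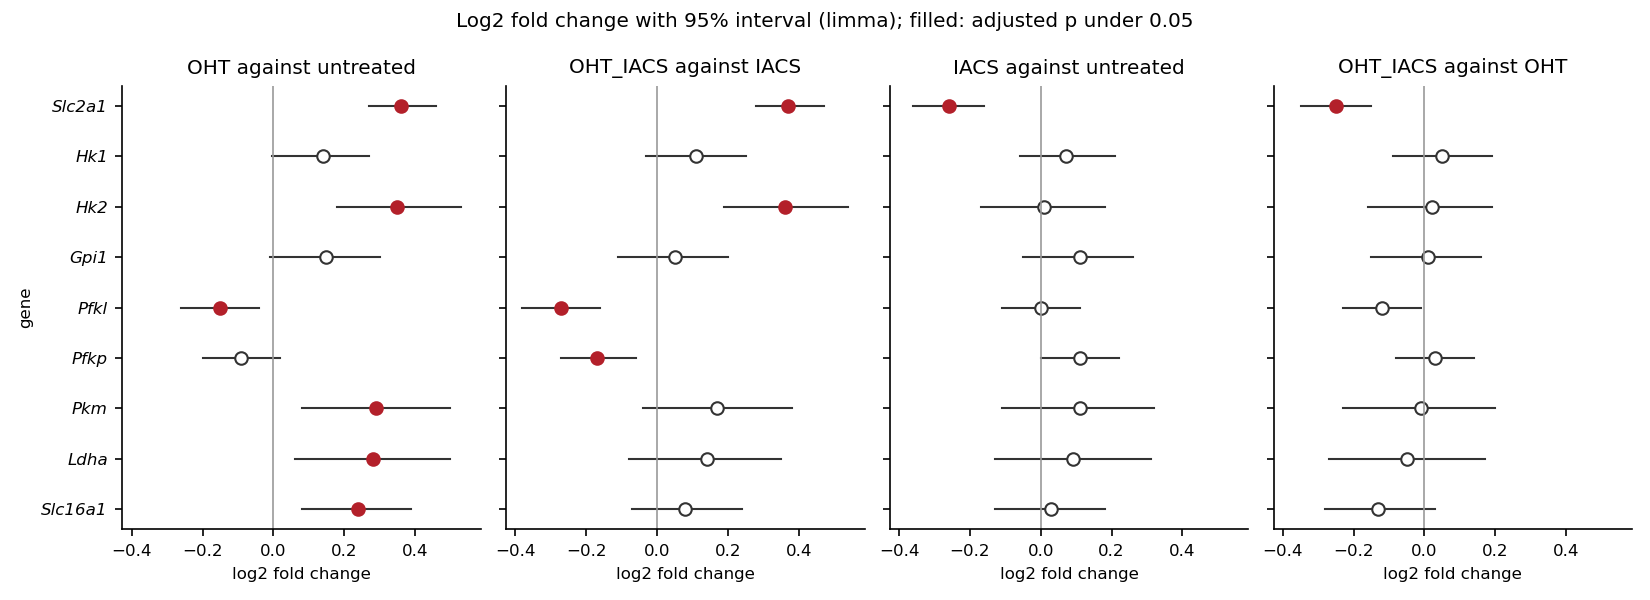
Log2 fold change of the 9 members tested in 4 comparisons, with the 95% interval from limma as a line. Filled points have an adjusted p under 0.05. Slc2a1 lies at 0.36 and 0.37 in the comparisons of OHT and at -0.26 and -0.25 in those of IACS, and no other member is called in the latter.

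Promoter windows from RefSeq (GRCm38.p6, 250 bases before to 50 after the start) were found for 10 of the 10 genes, 13 windows in all. They were searched on both strands for CACGTG, the palindromic E-box letters that Myc is known to bind, which 2349 of 32851 promoters (7.15%) hold. Of the 13 windows 2 held it, those of Ldha, in the first of its 2 windows, and Slc16a1. The windows printed are those of Slc2a1 (chr4:119108495-119108794, plus strand) and Hk2 (chr6:82774405-82774704, minus strand), the members that rose with OHT in every setting tried, and those of Ldha (chr7:46845554-46845853, plus strand) and Slc16a1 (chr3:104638414-104638713, plus strand), the windows with the motif. Capitals mark the motif, which begins 145 and 48 bases before the start in Ldha and 200 before it in Slc16a1. A match is a run of letters and not a measured site, and its absence from these windows says nothing of the rest of a gene.
Slc2a1: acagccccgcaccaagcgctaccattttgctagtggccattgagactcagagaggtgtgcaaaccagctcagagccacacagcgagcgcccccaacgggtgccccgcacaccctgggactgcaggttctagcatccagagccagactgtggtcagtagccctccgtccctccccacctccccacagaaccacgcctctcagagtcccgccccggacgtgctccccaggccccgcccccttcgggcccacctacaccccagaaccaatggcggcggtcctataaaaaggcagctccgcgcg
Hk2: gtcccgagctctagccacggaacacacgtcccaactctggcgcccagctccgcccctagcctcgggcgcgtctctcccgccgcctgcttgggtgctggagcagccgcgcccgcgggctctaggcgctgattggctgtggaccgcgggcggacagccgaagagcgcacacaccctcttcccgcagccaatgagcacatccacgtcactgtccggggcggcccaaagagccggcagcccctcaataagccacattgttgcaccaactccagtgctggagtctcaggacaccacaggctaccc
Ldha: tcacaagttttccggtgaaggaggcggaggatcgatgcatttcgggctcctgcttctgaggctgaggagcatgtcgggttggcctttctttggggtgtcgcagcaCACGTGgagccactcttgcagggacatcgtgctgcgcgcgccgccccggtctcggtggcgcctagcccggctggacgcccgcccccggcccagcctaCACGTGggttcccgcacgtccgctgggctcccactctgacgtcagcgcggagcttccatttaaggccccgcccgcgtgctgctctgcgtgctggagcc
Slc16a1: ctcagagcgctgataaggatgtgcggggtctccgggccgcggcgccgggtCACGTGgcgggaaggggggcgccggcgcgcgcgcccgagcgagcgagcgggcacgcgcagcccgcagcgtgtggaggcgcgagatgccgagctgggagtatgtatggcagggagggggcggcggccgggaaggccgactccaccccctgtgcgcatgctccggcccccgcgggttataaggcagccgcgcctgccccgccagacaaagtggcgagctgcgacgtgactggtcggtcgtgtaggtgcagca

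Slc2a1 encodes Glut1, the transporter that supplies most dividing cells with glucose, and it was the member that varied most over the 4 groups (F = 66.2). Its RPKM was 23.6, 22.6 and 25.1 in the untreated libraries and 29.7, 31.9 and 31.6 with OHT. With IACS it was 20.9, 20 and 19.7, and with OHT_IACS it was 25.8, 25.9 and 26.5. The 3 OHT libraries lay above all others and the 3 IACS libraries below all others, so that no pair of these groups overlapped. OHT raised Slc2a1 by a log2 fold change of 0.36 ± 0.045 (SE, adjusted p = 4.23e-05), or 1.29-fold. In cells on IACS the rise was 0.37 (adjusted p = 5.22e-05). IACS lowered Slc2a1 by a log2 fold change of -0.26 (adjusted p = 0.00181), and in cells on OHT by -0.25 (adjusted p = 0.00169). The interaction was 0.01, with a 95% interval from -0.13 to 0.15 and an adjusted p of 0.954. Cells with both treatments held 26.0 ± 0.43 RPKM (SD, n = 3), between the level with OHT alone and the untreated level. All 4 changes were called in each of the 25 other settings tried.

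Slc2a3, which encodes the high-affinity transporter Glut3, was the other abundant glucose transporter. It was at 19.4 ± 0.659 RPKM in untreated cells, 23.6 ± 1.84 with OHT, 19.3 ± 0.732 with IACS and 20.6 ± 0.647 with OHT_IACS (SD, n = 3). OHT raised it by 0.26 on the log2 scale (adjusted p = 0.000796), and in cells on OHT it was lower with IACS by -0.19 (adjusted p = 0.0101). In cells on IACS the value with OHT was 0.10 (adjusted p = 0.126), called only with weights per library (0.11), and IACS alone gave -0.03, not called. The log2 ratio of Slc2a3 to Slc2a1 was -0.29 in untreated cells, -0.40 with OHT, -0.06 with IACS and -0.34 with OHT_IACS. OHT moved this ratio by -0.11 without IACS and -0.27 with IACS, or -0.19 over both (exact permutation test within the IACS strata, two-sided, p = 0.005, the smallest they can give, adjusted p = 0.0075 over 6 tests of ratios). IACS moved it by 0.14 (exact permutation, p = 0.02, adjusted p = 0.024), by 0.23 without OHT and 0.06 with OHT, and the difference between these values was not tested. Slc2a1 therefore gained on Slc2a3 with OHT. It lost on it with IACS in cells without OHT, while in cells on OHT the groups overlapped, at -0.46 to -0.33 with OHT and -0.40 to -0.28 with OHT_IACS.

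The remaining glucose transporters tested were less abundant. Slc2a6, a transporter of intracellular membranes, stood at 0.748 ± 0.149 RPKM in untreated cells and 4.54 ± 0.431 with OHT (SD, n = 3). It reached 1 RPKM in all 6 libraries with OHT and in none without it, and so passed the filter only through the groups where it is high. Its values are therefore taken from the fit of all genes with no filter, in which it was higher with OHT by 2.44 on the log2 scale (limma, adjusted p = 7.26e-06), and by 2.58 in cells on IACS (adjusted p = 7.52e-06). Slc2a8 fell from 3.61 to 2.56 RPKM with OHT, a log2 fold change of -0.52 (adjusted p = 0.00784) that was -0.34 and not called with the library total as a covariate. Slc2a9, known to carry urate, stood at 1.00 RPKM in untreated cells and 0.401 with OHT, and reached 1 RPKM only in untreated replicate 1 and IACS replicates 1 and 2. In the fit with no filter it was lower with OHT by -1.15 (adjusted p = 0.00119), and in cells on IACS by -0.73 (adjusted p = 0.0233). With the filter, the latter call was lost without IACS replicate 1 (-0.71) or 2 (-0.63), without OHT_IACS replicate 1 (-0.69) or 2 (-0.63), with quantile normalization (-0.68) and with IACS replicates 1 and 2 averaged (-0.67). With a pseudocount of 1 in place of 0.1, the values of such low-level genes shrank, to 1.61 for Slc2a6 in OHT_IACS against IACS and to -0.52 and -0.36 for Slc2a9. The RPKM of the 5 transporters summed to 48.6 ± 2.22 in untreated cells, 62.2 ± 3.46 with OHT, 43.9 ± 1.4 with IACS and 53.9 ± 0.24 with OHT_IACS (SD, n = 3). Slc2a1 made up 48.9%, 50%, 46% and 48.3% of these sums. Slc2a2, Slc2a4, Slc2a5, Slc2a10 and Slc2a12 stood at 0 to 0.118 RPKM and were not tested.

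Hexokinases commit glucose to the cell, and Hk2 is the inducible isoform that sits on mitochondria. Its RPKM was 13.7, 14.4 and 15.2 in untreated libraries, and 16.8, 21.1 and 18.6 with OHT. IACS libraries held 14.7, 13.8 and 15.9 RPKM and OHT_IACS libraries 20.3, 17.6 and 19.0. All 6 libraries with OHT thus lay above all 6 without it. OHT raised Hk2 by 0.35 ± 0.0813 on the log2 scale (SE, adjusted p = 0.00443), and by 0.36 in cells on IACS (adjusted p = 0.00506). IACS gave log2 fold changes of 0.01 (adjusted p = 0.968) and, with OHT, 0.02 (adjusted p = 0.914). Both rises were called in each of the 25 other settings tried, at 0.28 to 0.41 and 0.30 to 0.44.

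Hk1, the isoform most tissues express, ran from 11.4 to 14.5 RPKM over the 12 libraries and was not called in any comparison. Its log2 fold change with OHT was 0.14 (adjusted p = 0.114), and it was called without OHT replicate 1 (0.21) and with weights per library (0.19). Without OHT replicate 2 it was 0.09 and not called. The log2 ratio of Hk2 to Hk1 was 0.27 ± 0.0166 in untreated cells, 0.49 ± 0.0844 with OHT, 0.21 ± 0.103 with IACS and 0.46 ± 0.0713 with OHT_IACS (SD, n = 3). OHT raised this ratio by 0.23 (exact permutation, p = 0.005, the smallest they can give, adjusted p = 0.0075), whereas IACS moved it by -0.05 (exact permutation, p = 0.24).

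**Figure D3:**
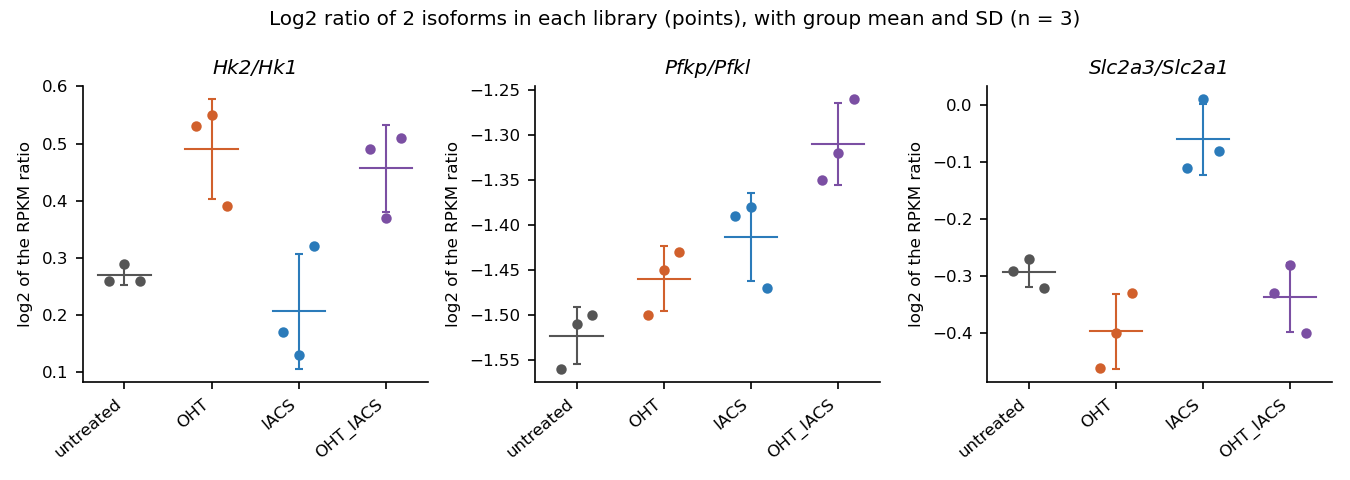
Log2 ratio of the RPKM of 2 isoforms of the same step in each of the 12 libraries. Points are libraries, horizontal lines group means and error bars the SD of 3 libraries. The ratio of Hk2 to Hk1 lies between 0.37 and 0.55 in the 6 libraries with OHT and between 0.13 and 0.32 in those without.

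The other hexokinases moved by more than Hk1 and Hk2. Hk3, an isoform of blood cells, made up 36.5% of the summed hexokinase RPKM in untreated cells, 9.69% with OHT, 38.4% with IACS and 20% with OHT_IACS. Hk2 made up 34.5%, 50.3%, 32.8% and 45.0% in the same order, so that it was the leading hexokinase transcript with OHT. Hk1 made up 28.6%, 35.8%, 28.4% and 32.8%. The sum itself was 41.9 ± 2.18 RPKM in untreated cells, 37.4 ± 3.8 with OHT, 45.2 ± 1.06 with IACS and 42.2 ± 0.925 with OHT_IACS (SD, n = 3). Hk2 thus rose with OHT while the mean of the sum was no higher than in untreated cells, a difference in sums that was not tested. Hk3 fell with OHT by 2.07 on the log2 scale (adjusted p = 1.47e-09) and by 1.03 in cells on IACS (adjusted p = 1.06e-06), and in cells on OHT it rose with IACS by 1.20 (adjusted p = 4.74e-07). Hkdc1, a hexokinase-like gene, was at 0.182 RPKM in untreated cells and 1.55 with OHT, and reached 1 RPKM only in the 3 OHT libraries and OHT_IACS replicate 2. In the fit with no filter it was higher with OHT by 2.54 (adjusted p = 4.05e-06), and by 2.02 in cells on IACS (adjusted p = 3.14e-05). These were 1.10 and 0.73 with a pseudocount of 1. In cells on OHT it was lower with IACS by -0.70 (adjusted p = 0.0313 with no filter), a call that with the filter was lost without any 1 of the OHT or OHT_IACS libraries, at -0.79 to -0.60, and in 4 of 12 further settings.

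Gpi1 turns the glucose phosphate into its fructose form. It ran from 37.8 to 40.3 RPKM in untreated cells and from 40.2 to 48.1 with OHT, from 41.2 to 45.6 with IACS and from 44.0 to 44.3 with OHT_IACS. The untreated and OHT ranges overlapped by a single library, OHT replicate 2. The log2 fold change with OHT was 0.15 (adjusted p = 0.122). It was called without OHT replicate 2 (0.22), with RPKM as deposited (0.17) and with weights per library (0.24), and it was -0.02 and not called with the library total as a covariate.

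Phosphofructokinase sets the pace of glycolysis in most cells, and Pfkl, its liver-type subunit, was the most abundant of the 3 here. Its RPKM was 28.5, 28.1 and 30.0 in untreated libraries and 24.6, 27.1 and 27.4 with OHT. IACS libraries were at 29.2, 28.7 and 30.4, and OHT_IACS libraries at 25, 24.5 and 23.3. The 6 libraries with OHT lay below all 6 without it. Pfkl thus fell while Slc2a1 and Hk2 rose. With OHT it changed by -0.15 ± 0.0499 on the log2 scale (SE, adjusted p = 0.0299). In cells on IACS the fall was larger in value, at -0.27 (adjusted p = 0.00136), and it was called in each of the 25 other settings tried, at -0.30 to -0.23. The interaction was not called for it. The fall with OHT alone was not called without untreated replicate 1 (-0.16) or 3 (-0.13), without OHT replicate 1 (-0.13) or 3 (-0.17), with RPKM as deposited (-0.13), with only the groups compared (-0.15) or with the library total as a covariate (-0.17).

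Pfkp, the platelet-type subunit, stood at 9.69, 9.84 and 10.6 RPKM in untreated libraries and at 8.71, 9.92 and 10.1 with OHT, which overlapped. With IACS it was 11.1, 11 and 11, and with OHT_IACS 9.83, 9.80 and 9.74, which did not. In cells on IACS it fell with OHT by -0.17 ± 0.0506 (SE, adjusted p = 0.0275). This call was lost without IACS replicate 1 (-0.17), 2 (-0.18) or 3 (-0.15), without OHT_IACS replicate 1 (-0.17), 2 (-0.15) or 3 (-0.17), with RPKM as deposited (-0.17) and with IACS replicates 1 and 2 averaged (-0.17). With IACS alone its log2 fold change was 0.11 (limma, adjusted p = 0.161).

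The muscle-type subunit, Pfkm, was at 9.32 RPKM in untreated cells, 8.40 with OHT, 8.23 with IACS and 7.08 with OHT_IACS. Its log2 fold change of -0.23 in OHT_IACS against OHT (adjusted p = 0.0477) came from groups that overlapped and was called in only 7 of 25 other settings, and with a single library left out only without OHT replicate 1. The RPKM of the 3 subunits summed to 48.2 ± 1.93 in untreated cells, 44.4 ± 3.58 with OHT, 48.7 ± 0.601 with IACS and 41.1 ± 1.14 with OHT_IACS (SD, n = 3). The log2 ratio of Pfkp to Pfkl was -1.52 in untreated cells, -1.46 with OHT, -1.41 with IACS and -1.31 with OHT_IACS. OHT raised this ratio by 0.08 and IACS by 0.13, each with an exact permutation p of 0.005, the smallest they can give, and an adjusted p of 0.0075. Pfkp thus gained a little on Pfkl with either treatment.

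The 3 most abundant members, Ldha, Pkm and Slc16a1, are given with their reads as well. Ldha held 1731 to 1904 reads in all 12 libraries, and Pkm 2552 to 2839, although the totals differed as given above. Slc16a1 held 2223 to 2803 reads. Within groups, log2 reads of Ldha followed the log2 total with a slope of 0.18, and those of Pkm with 0.21, where proportional reads give 1. Slc16a1 and Gpi1 had slopes of 0.53 each. Slc2a1 at 1.15, Pfkl at 1.06, Pfkp at 1.19, Hk2 at 1.29 and Hk1 at 1.36 did not level off. Over all genes the median slope was 1.39 for 4354 genes under 0.1 reads per base and 0.18 for 84 genes over 1. Ldha and Pkm held 0.932 and 0.862 reads per base. For the 680 genes at 0.5 to 1 reads per base, their own class, the median slope was 0.59 (quartiles 0.44 and 0.76). The slopes of Ldha and Pkm lay below the lower quartile of that class. OHT replicates 1 and 3 had the smallest totals. With the log2 total as a covariate, the log2 fold changes with OHT were 0.02 for Ldha, 0.03 for Pkm and 0.07 for Slc16a1, none of them called. The totals went in part with OHT, and their part in the RPKM of these genes was not tested apart from it.

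**Figure D4:**
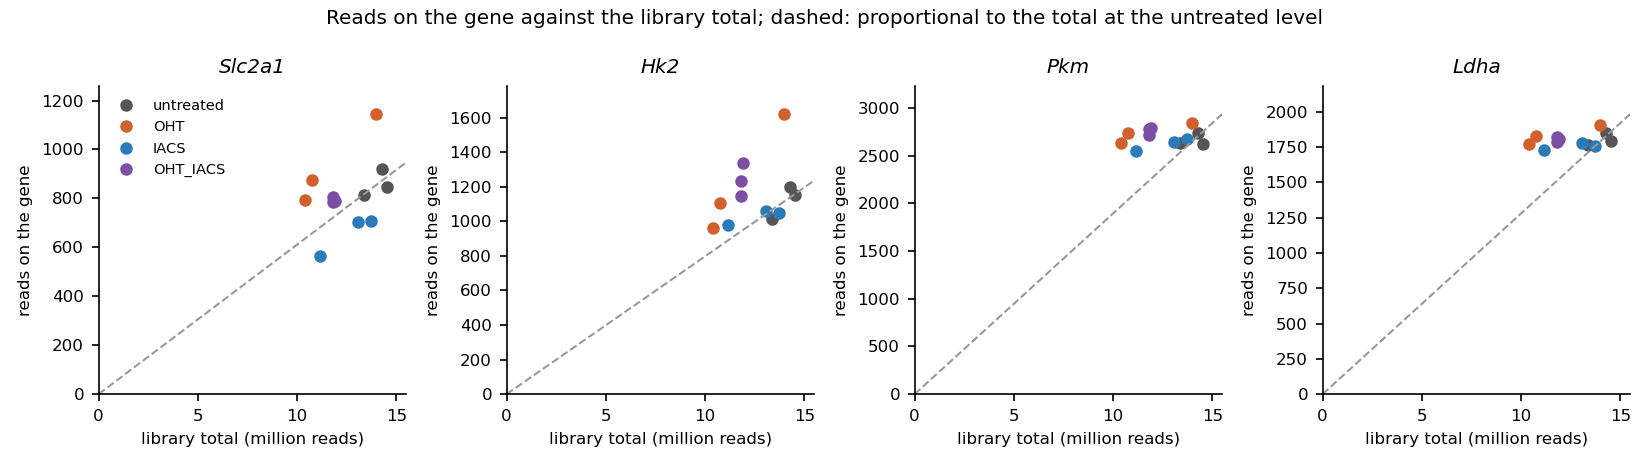
Reads on Slc2a1, Hk2, Pkm and Ldha against the library total, 1 point for each of the 12 libraries. The dashed line is proportional to the total and passes through the untreated mean, and all axes start at 0. Ldha stays between 1731 and 1904 reads, whereas Slc2a1 runs from 563 to 1145.

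Pkm encodes pyruvate kinase, which makes pyruvate and ATP, and the table does not separate its spliced forms. Its RPKM was 63.0, 57.6 and 61.3 in untreated libraries and 81.2, 65.0 and 81.2 with OHT. With IACS it was 64.6, 62.2 and 73.2, and with OHT_IACS it was 74.8, 75.2 and 73.7. OHT replicate 2 lay close to the untreated libraries, and IACS replicate 3 above the other 2 of its group. Pkm was called higher with OHT, at 0.29 ± 0.0984 on the log2 scale (SE, adjusted p = 0.0329). With the library total as a covariate the value was 0.03 and not called, and without OHT replicate 2 it was 0.41 and called. The call was lost without untreated replicate 2 (0.26) or 3 (0.29), without OHT replicate 1 (0.22) or 3 (0.25), with no filter (0.29) and with only the groups compared (0.29). In cells on IACS its log2 fold change with OHT was 0.17 (adjusted p = 0.224), called only with quantile normalization (0.12), weights per library (0.22) and the library total as a covariate (0.09). With a library left out it ran from 0.11 (without IACS replicate 2) to 0.26 (without IACS replicate 3), not called.

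Ldha encodes the muscle-type subunit of lactate dehydrogenase, which turns pyruvate to lactate. Its RPKM was 68.4, 63.8 and 67.0 in untreated libraries and 88.7, 70.7 and 87.8 with OHT. The values were 70.5, 66.4 and 80.6 RPKM with IACS, and with OHT_IACS they were 78.5, 80.0 and 78.6. The pattern over libraries was that of Pkm, with OHT replicate 2 near the untreated libraries. Ldha was called higher with OHT, at 0.28 ± 0.102 on the log2 scale (SE, adjusted p = 0.0444). With the library total as a covariate the value was 0.02 and not called, and without OHT replicate 2 it was 0.40 and called. The call was lost without untreated replicate 1 (0.31), 2 (0.25) or 3 (0.28), without OHT replicate 1 (0.20) or 3 (0.24), without IACS replicate 1 (0.28), without any 1 of the OHT_IACS libraries (0.28 each), with no filter, no mean-variance trend or only the groups compared (0.28 each). Its log2 fold change with OHT in cells on IACS was 0.14, called only with quantile normalization (0.08) and weights per library (0.19), and it ran from 0.06 (without IACS replicate 2) to 0.23 (without IACS replicate 3) with a library left out. IACS gave log2 fold changes of 0.09 and, with OHT, -0.05, neither of them called. Reads of near-identical copies of Ldha elsewhere in the genome may be counted with it or lost, which was not tested. Ldhb, the heart-type subunit, stood at 0 to 0.0747 RPKM, so that no ratio of the 2 subunits was formed, and Ldhc at 0.294 to 0.823 RPKM and Ldhd at 0 to 0.0521 were not tested.

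Slc16a1 encodes Mct1, which carries lactate and pyruvate with a proton in either direction. Its RPKM was 43.4, 42.2 and 40.9 in untreated libraries and 53.4, 45.4 and 52.9 with OHT. With IACS it was 44.1, 42.2 and 45.1, and with OHT_IACS it was 46.4, 46.0 and 46.0. All OHT libraries lay above the untreated ones, OHT replicate 2 by the least. Slc16a1 was called higher with OHT, at 0.24 ± 0.0718 on the log2 scale (SE, adjusted p = 0.0209), and at 0.07, not called, with the library total as a covariate. The call was lost without untreated replicate 2 (0.24) or 3 (0.21), without OHT replicate 1 (0.17) or 3 (0.21) and with only the groups compared (0.24). In cells on IACS its log2 fold change with OHT was 0.08, and IACS gave 0.03 and, with OHT, -0.13, none of them called.

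Slc16a3, which encodes Mct4, the exporter of strongly glycolytic cells, ran from 0.13 to 0.533 RPKM and was not measured at this depth. Of the other lactate carriers Slc16a7 was at 0 in every library and Slc16a8 at 0.0767 to 0.562 RPKM. Slc16a1 was thus the lactate transporter transcript these cells held in quantity. Bsg, the chaperone that brings Mct1 to the membrane, was at 56.6 ± 2.16 RPKM in untreated cells, 64.4 ± 6.76 with OHT, 60.5 ± 2.43 with IACS and 60.6 ± 1.01 with OHT_IACS (SD, n = 3). It was not called in any comparison of the main fit. Its log2 fold change with OHT was 0.16, called without OHT replicate 2 (0.26) and with weights per library (0.22). With the library total as a covariate it was -0.04 and not called. In cells on OHT its value with IACS was -0.08, called only without OHT replicate 2 (-0.18). Emb, the other known chaperone of Mct1, stood at 0 to 0.0278 RPKM.

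The genes most like the members in pattern were sought among all genes tested for the 3 members with the largest F over the groups. Slc2a1 was followed most closely by Alkbh5 (Pearson r = 0.979, Spearman rho = 0.986 over 12 libraries) and Srebf2 (r = 0.976, rho = 0.965). For Hk2 they were Prrc2c (r = 0.979, rho = 0.986) and Camsap1 (r = 0.97, rho = 0.965), and for Pfkl they were Cdc37l1 (r = 0.931, rho = 0.902) and Msh6 (r = 0.927, rho = 0.888). These values were picked as the highest of all genes, the libraries fall into 4 groups, and they carry no test. Alkbh5 stood at 23.1, 27.3, 20.7 and 25.4 RPKM in untreated, OHT, IACS and OHT_IACS cells, and Srebf2 at 13.6, 17.6, 11.4 and 15.6. Both had the order of groups that Slc2a1 had.

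Of 20 other isoforms of the same steps, described above beside the members, 8 were tested. Since 3 of these, Slc2a6, Slc2a9 and Hkdc1, passed the filter only through the groups where they are high, no count over this list is set against all genes. The interaction was called for Hk3.

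Of 14 listed genes for the other enzymes of the core pathway 10 were tested. With OHT 0 were called higher and 1 lower (18.2% and 18.2% of all genes), with a median log2 fold change of 0.15 and with 5 at an unadjusted p under 0.05 in limma. Aldoa, Pgk1, Pgam1 and Gapdh, named here after their values were seen, were called higher without OHT replicate 2 (0.33, 0.36, 0.30 and 0.24). Weights per library called the same genes (0.29, 0.31, 0.24 and 0.21), and voom and RPKM as deposited called Aldoa, Pgk1 and Pgam1. With the library total as a covariate their values were -0.03, 0.01, -0.03 and -0.12, none of them called. Tpi1 had the same value as Aldoa in the main fit, 0.22 (limma, adjusted p = 0.0877 and 0.102). Its values in the other settings are not listed here. Aldoa, Tpi1, Pgk1, Pgam1 and Gapdh, the most abundant of the list, had slopes of reads on the total between 0.23 and 0.31, so that their reads had levelled off too. Gapdh held only 0.398 reads per base, and its slope of 0.23 lay below its class. For genes at 0.3 to 0.5 reads per base the median slope was 0.91 (quartiles 0.75 and 1.06). The reason was not tested. Pgam2, the muscle mutase, was the gene called lower with OHT, from 2.18 to 1.05 RPKM (-1.04, adjusted p = 0.0064). It was -0.71 and not called with the library total as a covariate, and -0.65 with a pseudocount of 1. With IACS the list had 0 higher and 2 lower (8.15% and 7.74% of all genes), and in cells on OHT 0 higher and 1 lower (11.9% and 11.8%). Bpgm, which makes bisphosphoglycerate, fell with IACS by -0.37 (adjusted p = 0.018) and in cells on OHT by -0.60 (adjusted p = 0.000638). The former call was lost without untreated replicate 2 (-0.31) or IACS replicate 1 or 3 (-0.32 each). Eno3, the muscle enolase, fell with IACS by -0.32 (adjusted p = 0.0222), a call lost without untreated replicate 1 (-0.29) or 3 (-0.30), without IACS replicate 1 (-0.31) or 3 (-0.27), or with the library total as a covariate (-0.31). None was called in OHT_IACS against IACS (12.3% of all genes were higher and 14.2% lower), with 0 at an unadjusted p under 0.05 in limma. In the main fit, counts this small in a list of 10 do not set it apart from all genes. The count higher with OHT changed without OHT replicate 2 and with the settings given above, so that no conclusion is drawn from it. Gapdh and Eno1 have near-identical copies elsewhere in the genome, and how their reads were shared is not known.

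Regulators of the flux from glucose to pyruvate and beyond made up a list of 15, of which 11 were tested. Pfkfb1 among them, named after its values were seen, reached 1 RPKM only in OHT replicates 1 and 2 and the 3 IACS libraries and was called in no comparison, so that the counts are of the other 10. With OHT 4 were called higher and 3 lower (18.2% and 18.2% of all genes), and with OHT in cells on IACS 5 higher and 2 lower (12.3% and 14.2% of all genes). Pdp1, a phosphatase that switches pyruvate dehydrogenase on, rose by 1.34 (adjusted p = 2.67e-07) and 1.26 (adjusted p = 8.00e-07). Pdk1, a kinase that switches the same complex off and is named here after its values were seen, rose by 0.82 (adjusted p = 1.31e-07) and 0.73 (adjusted p = 5.60e-07), both called in each of the 25 other settings. Tigar, listed in the table as 9630033F20Rik and known to lower fructose bisphosphate, rose by 0.89 (adjusted p = 3.74e-05) and 0.80 (adjusted p = 0.000141). Pfkfb4, which makes and removes the activator of phosphofructokinase, fell with OHT by -0.58 (adjusted p = 0.000828) and with IACS by -0.49 (adjusted p = 0.00702). Pfkfb3, of the same family, fell with OHT by -0.31 (adjusted p = 0.00599), a change named after its values were seen and lost only with the library total as a covariate (-0.20), and in cells on IACS by -0.31 (adjusted p = 0.00766), kept in all 25 other settings. Pfkfb2 was lower with OHT by -0.32 (adjusted p = 0.0429), a call kept in only 9 of 24 other settings and, with a single library left out, only without OHT replicate 2, IACS replicate 3 or OHT_IACS replicate 2 or 3. With IACS 1 was called higher and 2 lower (8.15% and 7.74% of all genes), and in cells on OHT 1 and 1 (11.9% and 11.8%). Pdp2 fell with IACS by -0.42 (adjusted p = 0.00756). Pdk3, a kinase like Pdk1, was higher with IACS by 0.17 (adjusted p = 0.0257), a call lost without untreated replicate 1 (0.17) or 3 (0.15) or IACS replicate 2 (0.15) or 3 (0.16), and fell with OHT in cells on IACS by -0.23 (adjusted p = 0.00275). In cells on OHT, Pdk1 was lower with IACS by -0.20 (adjusted p = 0.0132) and Adpgk, a sugar kinase that uses ADP, higher by 0.17 (adjusted p = 0.0145), and both calls were lost without OHT_IACS replicate 3 (-0.19 and 0.15).

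Beyond pyruvate kinase the route forks between lactate and the mitochondrion. Of 7 genes for the entry of pyruvate into mitochondria, all tested, 5 were called higher and 0 lower with OHT (18.2% and 18.2% of all genes), and 4 higher and 0 lower with OHT in cells on IACS (12.3% and 14.2%). Dld and Pdha1, subunits of pyruvate dehydrogenase, rose with OHT by 0.28 (adjusted p = 0.000286) and 0.27 (adjusted p = 0.00123). Pdhx and Dlat, of the same complex, rose with OHT in cells on IACS by 0.33 (adjusted p = 0.000416) and 0.26 (adjusted p = 0.000481). With IACS 1 was called higher, Dld at 0.20 (adjusted p = 0.00931), and 1 lower, Pdhx at -0.23 (adjusted p = 0.0105), where 8.15% and 7.74% of all genes were. In cells on OHT the count with IACS was 1 higher, Mpc2 of the pyruvate carrier at 0.23 (adjusted p = 0.0322), and 0 lower, beside 11.9% and 11.8% of all genes. The call of Mpc2 was lost without OHT replicate 2 (0.22) or 3 (0.20) or OHT_IACS replicate 2 (0.19) or 3 (0.22), with quantile normalization (0.18) and with only the groups compared (0.23).

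The pentose phosphate branch leaves glycolysis after the hexokinase step. Of its 7 genes, all tested, 2 were called higher and 1 lower with OHT (18.2% and 18.2% of all genes), and 2 higher and 0 lower with OHT in cells on IACS (12.3% and 14.2%). G6pdx, its first enzyme, rose by 0.31 (adjusted p = 0.000511) and 0.23 (adjusted p = 0.00568). Pgd rose with OHT in cells on IACS by 0.26 (adjusted p = 0.00316), and with OHT alone it was higher by 0.17 (adjusted p = 0.0218), which fell to 0.08 with the library total as a covariate. The latter call was lost without untreated replicate 1 (0.18), 2 (0.18) or 3 (0.17) or OHT replicate 1 (0.13) or 3 (0.18), with only the groups compared (0.17) and with the covariate. Pgls was lower with OHT by -0.19 (adjusted p = 0.0303), a call lost without untreated replicate 1 (-0.15) or 3 (-0.18) or any 1 OHT library (-0.19, -0.18 and -0.19), with no filter (-0.19), with RPKM as deposited (-0.17) and with the library total as a covariate (-0.23), and in cells on OHT it rose with IACS by 0.34 (adjusted p = 0.00193). Rpia fell with IACS in cells on OHT by -0.34 (adjusted p = 0.000661), and in cells without OHT the value was -0.17 (adjusted p = 0.047), called in only 9 of 25 other settings and, with a single library left out, only without OHT replicate 1 or 2 or OHT_IACS replicate 1. With IACS the list had 0 higher and 1 lower (8.15% and 7.74% of all genes), and in cells on OHT 1 and 1 (11.9% and 11.8%). Counts of 0 to 2 in a list of 7 do not set it apart from all genes.

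The shuttles that carry NADH from glycolysis into mitochondria had 8 of 9 genes tested. With OHT 4 were called higher and 0 lower (18.2% and 18.2% of all genes), and in cells on IACS 2 and 0 (12.3% and 14.2%). Got2 rose with OHT by 0.28 (adjusted p = 0.00436), and in cells on IACS by 0.24 (adjusted p = 0.0147), the latter lost without IACS replicate 1 (0.24) or 2 (0.21) and with the 2 averaged (0.22). Got1 was higher with OHT by 0.23 (adjusted p = 0.0128), which fell to 0.09 with the library total as a covariate and was not called without untreated replicate 3 (0.21) or OHT replicate 3 (0.20). The other 2 called with OHT, named after their values were seen, were Mdh2 at 0.19 (adjusted p = 0.0378) and Slc25a13, a carrier of the malate-aspartate shuttle, at 0.16 (adjusted p = 0.0432), the latter from groups that overlapped. Their calls were kept in 13 and 8 of 25 other settings and lost without OHT replicate 3 (0.19 and 0.12), so that without this library 1 of the 4 was left. The value of Mdh2 was 0.06 and not called with quantile normalization, and likewise with the library total as a covariate. Gpd2, of the glycerol phosphate shuttle, fell with IACS by -0.29 (adjusted p = 0.00501), and this was called in each of the 25 other settings. In cells on OHT it was lower with IACS by -0.19 (adjusted p = 0.0338) and in cells on IACS higher with OHT by 0.19 (adjusted p = 0.0314), calls kept in 18 and 17 of 25 other settings. The former was lost without OHT replicate 2 (-0.16) or 3 (-0.17) or OHT_IACS replicate 2 (-0.14) or 3 (-0.18), and the latter without IACS replicate 1 (0.20), 2 (0.19) or 3 (0.17) or OHT_IACS replicate 1 (0.13) or 3 (0.19), and with IACS replicates 1 and 2 averaged (0.19). Got2 and Gpd2 were the genes called higher with OHT in cells on IACS. Neither call was left without IACS replicate 1, without IACS replicate 2 or with these averaged. Slc25a13 fell with IACS in cells on OHT by -0.35 (adjusted p = 0.00109). With IACS 0 were called higher and 1 lower (8.15% and 7.74% of all genes), and in cells on OHT 0 and 3 (11.9% and 11.8%). The third of these, named after its values were seen, was Slc25a12 at -0.17 (adjusted p = 0.0379), called in 13 of 25 other settings. It lost the call together with Gpd2 without OHT replicate 3 (-0.12) or OHT_IACS replicate 2 (-0.19) or 3 (-0.15), which left 1 of the 3. The interaction was called for 0 genes of the 5 lists other than the isoforms with limma (0.144% of all genes), where 1, 2, 1, 2 and 1 had an unadjusted p under 0.05 in the order of the lists above, Pfkfb1 being among the 2 regulators.

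**Figure D5:**
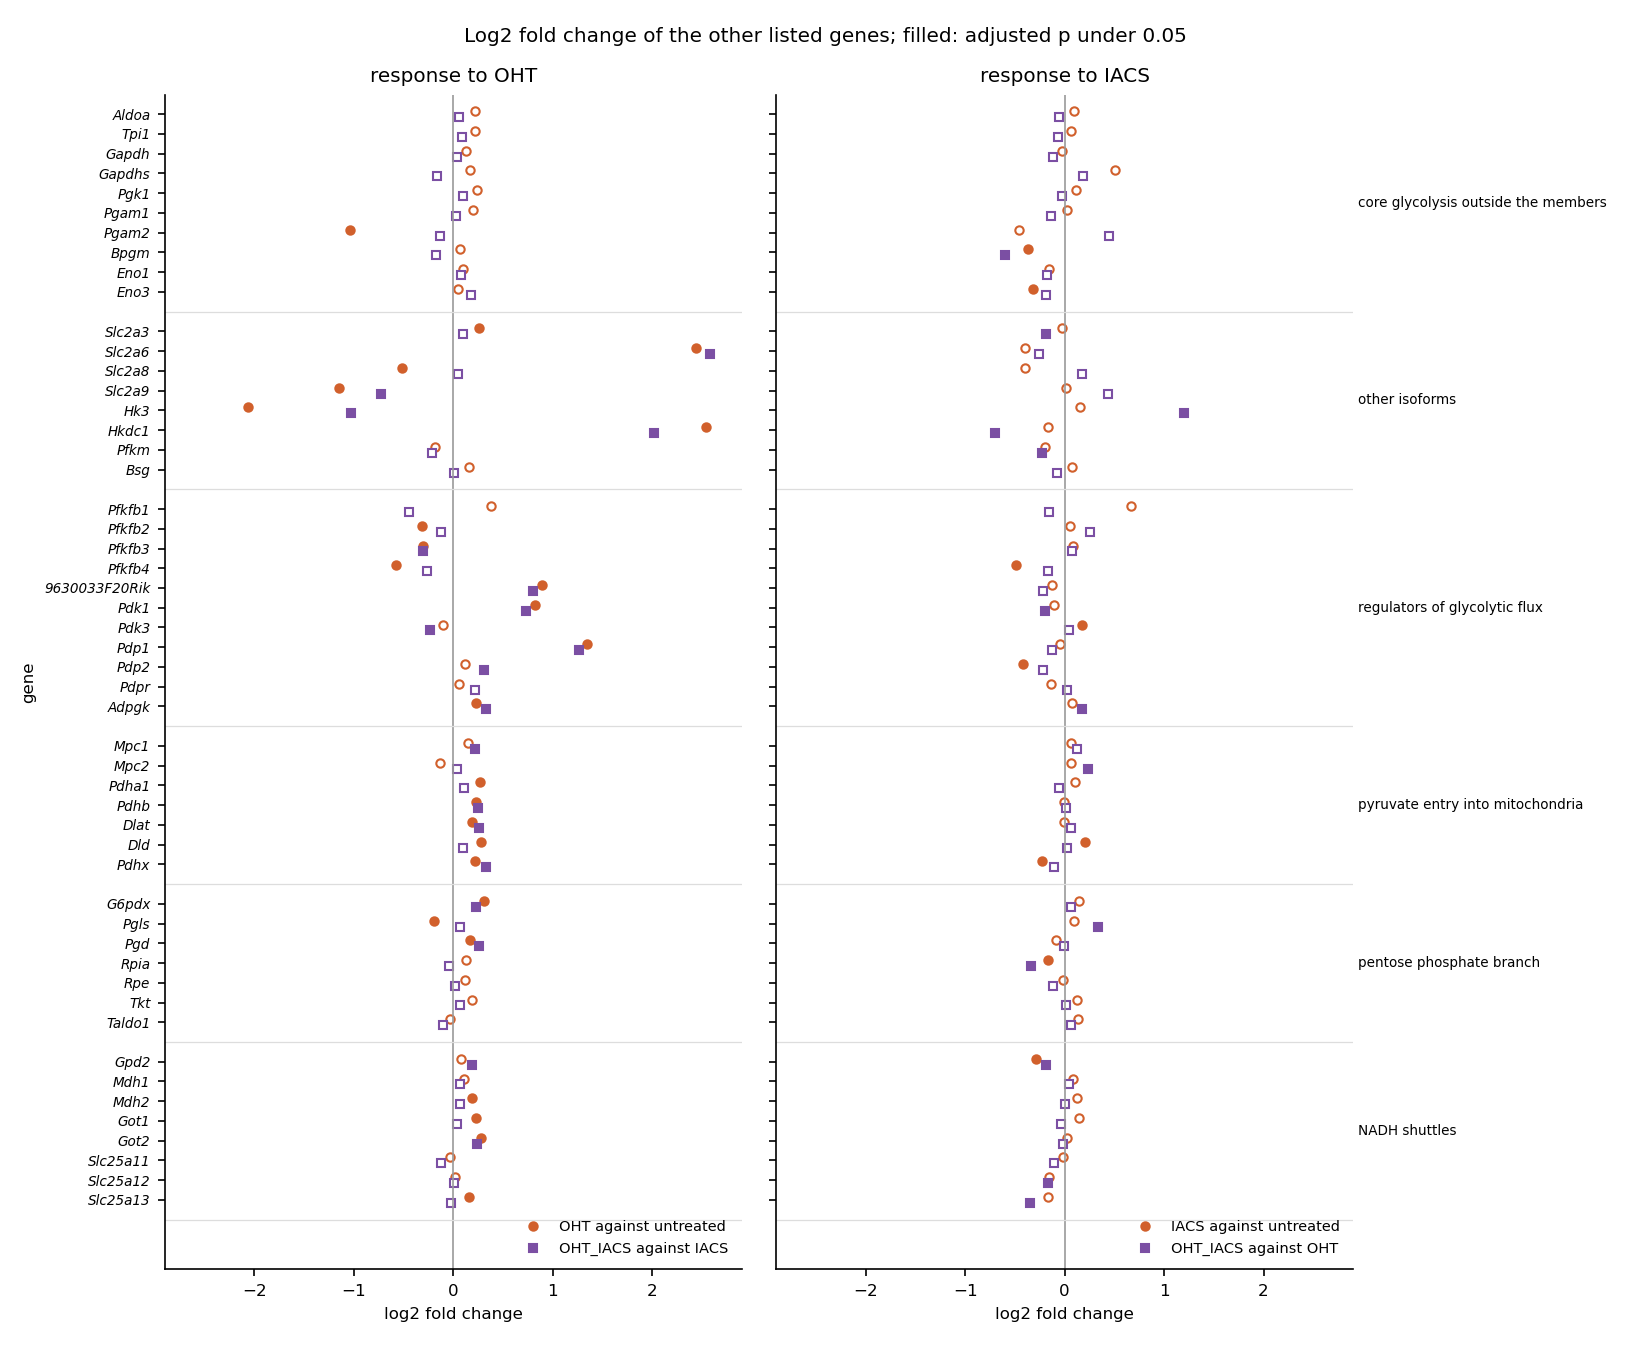
Log2 fold change of the other listed genes tested, grouped by list, for the response to OHT (left) and to IACS (right). Circles are the comparisons with untreated cells and squares those with cells on the other treatment, and filled symbols have an adjusted p under 0.05. Slc2a6 at 2.58 (in cells on IACS) and Hkdc1 at 2.54 lie furthest to the right with OHT, and Hk3 at -2.07 furthest to the left.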

How the data were processed

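The authors sequenced ribosome-depleted stranded total RNA of 12 libraries and deposited RPKM for each gene and library. The submitters' processing notes name TopHat2 2.0.8, featureCounts 1.4.5-p1, DESeq2 and mm9. Reads and library totals were recovered from the steps of the RPKM, which were whole multiples of 1 read for 15451 of 15451 genes above 0 (tolerance 1e-05). Scaling used each library's median ratio to the per-gene geometric mean (factors 0.974 to 1.03). The 9745 genes that reached a deposited RPKM of 1 in 3 or more libraries were tested with limma 3.58.1 in R 4.3.3 on log2(RPKM + 0.1), all 12 libraries in a single fit with a mean-variance trend, with two-sided tests, Benjamini-Hochberg adjustment for each of 5 comparisons and a threshold at 0.05. These p-values weigh a difference against the spread between libraries. Ratios of isoforms were compared by exact permutation within strata (400 arrangements, 6 tests) in python 3.11.15 with numpy 2.4.6, pandas 2.3.3 and scipy 1.17.1, and plots were drawn with matplotlib 3.10.9. The recovered reads entered voom only and DESeq2 was not run, and the authors' 6 comparison columns were not used. The procedure was tested on simulated data. The members and the lists were chosen with earlier results of these data known. Named are the 10 members, each tested gene of the list of other isoforms, in each other list the 2 largest called rises and 2 largest called falls per comparison, 5 treatment checks, and the 2 genes with the highest Pearson r with each of 3 members. Other changes named are marked in the report as chosen after their values were seen. The alternatives were pseudocounts of 1 and 0.01, no filter, a minimum of 5 RPKM, unscaled RPKM as deposited, a replicate block, quantile normalization, only the groups compared, no mean-variance trend, voom on recovered reads, library weights, the log2 total as a covariate, and each library left out in turn. Averaging IACS replicates 1 and 2 was added after seeing the data.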

Additional observations from a re-analysis of the deposited data

Results flagged for a closer look

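Hk3 was the gene of the listed isoforms whose response to IACS differed with OHT by a test of the difference itself. Its RPKM was 14.6, 15.1 and 16.1 in untreated libraries, 3.53, 3.80 and 3.49 with OHT, 18.5, 18.3 and 15.4 with IACS, and 7.40, 9.54 and 8.32 with OHT_IACS. The interaction was 1.04 ± 0.111 on the log2 scale (SE, limma, adjusted p = 0.00148), from a log2 fold change with IACS of 0.15 without OHT and 1.20 with OHT, and it was called in each of the 25 other settings, at 0.88 to 1.13.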

How the results depend on the processing

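The changes of Slc2a1 in 4 comparisons, of Hk2 in 2 and of Pfkl in OHT_IACS against IACS were called with the same sign in all 25 other settings. Of 156 fits of the 12 called results of members under other settings, 142 kept the call and 14 lost it, and of 144 with a library left out, 117 kept it and 27 lost it, with no change of sign. Of the 33 results not called, 11 of 429 and 3 of 396 fits were called. The 6 members called with OHT became 2 with only the groups compared, 2 with the library total as a covariate, and 2 to 7 with a library left out. The 1 in OHT_IACS against OHT became 3 with weights per library, 2 with the covariate, and 1 to 2 with a library left out. Weights per library gave 5631 genes in place of 3546 for OHT, 2734 in place of 1548 for IACS, 4199 in place of 2310 for OHT_IACS against OHT and 1066 in place of 14 for the interaction, and the covariate gave 2351 for OHT. With a library left out, genes called with IACS ran from 950 (without untreated replicate 1) to 1806, in OHT_IACS against OHT from 1521 (without OHT_IACS replicate 3) to 2950, and in the interaction from 3 (without OHT replicate 3) to 130 (without OHT replicate 2). The interaction gave 7 with no filter, 5 with RPKM as deposited, 34 with quantile normalization, 7 with the replicate block, 5 with the covariate, 31 with voom and 6 with IACS replicates 1 and 2 averaged, which was chosen after seeing the data. With RPKM as deposited, 867 genes were higher and 469 lower with IACS, against 794 and 754. Pgam1 reversed with IACS under the covariate, to -0.11 and called, from 0.02 and not called. The cause was not tested. Same-numbered replicates of different groups correlated at -0.172 to 0.104. Each untreated replicate was best matched by the OHT replicate of the same number, though only at 0.0831, 0.104 and 0.0879. The numbers were not taken as pairs, and the block left the members called at 6, 1, 1, 4 and 0. Slc16a3 was called with OHT only with no filter. It held 4 to 20 reads.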
